A study of Xenopus laevis with 96 samples.

Results

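The genes described here are the retinoid X receptor genes of the frog Xenopus laevis, followed through gastrulation in embryos whose retinoic acid (RA) levels had been transiently raised or lowered. They were chosen by symbol alone, as any gene named rar or rxr followed by a, b or g and by the suffix L or S. The rule found 4 genes among the 16322 genes of the table that carries symbols: rxra.S, rxrb.L, rxrb.S and rxrg.L. All 4 also had counts in the table of 31430 genes. No symbol of the rar form was found, so the RA receptors proper were not analysed here. The suffixes L and S mark the chromosome set a gene lies on, because the X. laevis genome holds 2 sets and many genes exist as a pair of homeologs. Only rxrb was found as a pair.

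RA is made from vitamin A by successive oxidation of retinol and retinaldehyde. It acts through nuclear receptors that sit on DNA as a pair, an RA receptor (RAR) that binds RA and a retinoid X receptor (RXR) as its partner. Without ligand the pair holds corepressors at its target genes, and with ligand it recruits coactivators. RXR also partners other nuclear receptors, among them the thyroid hormone, vitamin D and PPAR receptors, so its supply is shared by several pathways. In the gastrula, RA signaling patterns the embryo along the head to tail axis and switches on the first hox genes.

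Whole embryos were collected from 6 clutches, named A to F, each laid by a single female and divided over every treatment and time. Each sample pooled 5 to 10 embryos. The treatments ran for 2 h, from late blastula to early gastrula, and were 10 nM all-trans RA, 50 µM DEAB (4-diethylaminobenzaldehyde, an inhibitor of the retinaldehyde dehydrogenases that make RA), 0.5% ethanol, and none of these agents in the control. RA and DEAB came from stocks in DMSO. The paper does not state whether the control received DMSO. After a wash, samples were taken at 0, 1.5, 3 and 4.5 h, which gave 16 groups of 6 libraries, 96 libraries in all. All embryos were at stage 10.25 at 0 h. At 1.5 h clutch A was at stage 11.5 and the others at stage 11. At 3 h clutches B and C were at stage 11.5 and the others at stage 12. At the end clutches B and C were at stage 12 and the others at stage 12.5. The clutches were picked for sequencing because RA target genes had responded to both RA and DEAB, so changes of such targets are not independent evidence of the treatments. Libraries held 5528562 to 15869722 counted reads, with a median of 11691899.5. At this depth rxrb.L had 842 to 2413 reads per library and rxrb.S 578 to 1986. rxra.S had 28 to 149 and rxrg.L 7 to 416, so fewer reads stood behind the last pair. Levels are CPM, counts scaled to the size of the library and further between libraries by the TMM method. Transcript lengths were not used, so levels are compared within a gene and not between genes. The samples are bulk, so fewer cells expressing a gene and less RNA per cell cannot be told apart. Markers of ectoderm, mesoderm, organizer and endoderm were all detected.

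The rxr genes were first followed in the control embryos, to learn how the receptors behaved when RA was left alone. The 4 genes took 3 different courses. The rxrb pair rose from the first interval on, rxra.S rose only at the end, and rxrg.L fell at every step. At 4.5 h all 4 genes differed from 0 h, which 82.9% of the 20295 genes tested also did, so a change in itself sets no gene apart here. The called genes numbered 3 of 4 at 1.5 h, against 48.3% of all genes, and 3 of 4 at 3 h, against 74.6%. Calls are from edgeR's quasi-likelihood test with the clutch as a block, at an adjusted p (Benjamini-Hochberg, over all genes tested) under 0.05.

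**Figure D1:**
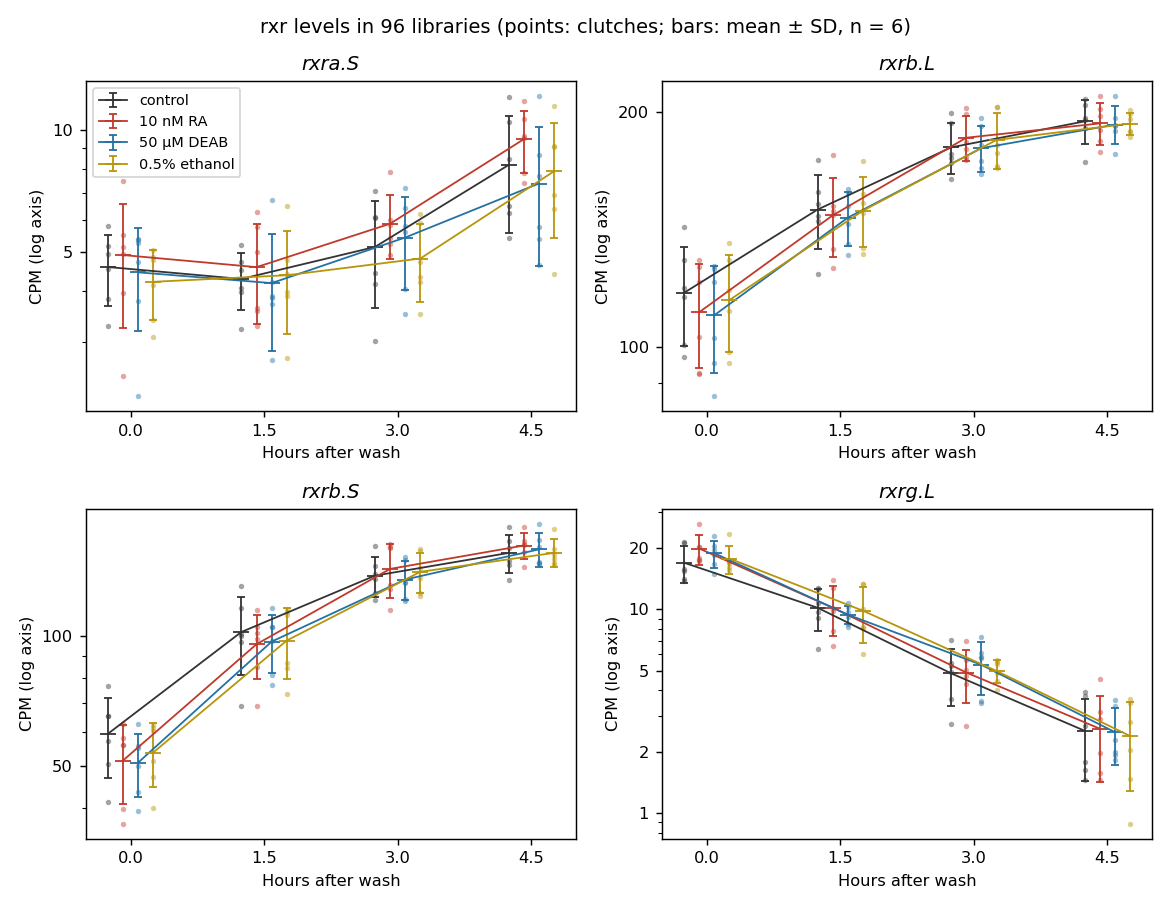
Level of each rxr gene in CPM (log axis) against hours after the wash, in the 96 libraries. Each point is the pooled embryos of 1 clutch, horizontal marks and bars are the mean ± SD of 6 clutches, and the treatments are shifted sideways for clarity. In every treatment rxrb.L and rxrb.S climb, rxrg.L drops to about 2.5 CPM and rxra.S rises mainly between 3 and 4.5 h.

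rxrg.L, which encodes RXR gamma, declined steeply. At 0 h its control level ranged from 13.8 to 21.5 CPM with a median of 15.6 CPM. At 1.5 h it ranged from 6.37 to 12.7 CPM with a median of 10.2 CPM. These 2 sets of 6 libraries did not overlap, although later neighbouring times did. How many of all genes separate in this way was not counted, and 48.3% were called at 1.5 h. The control range was 2.74 to 7.09 CPM at 3 h (median 5.09 CPM) and 1.45 to 3.92 CPM at 4.5 h (median 2.22 CPM), where a library held only 7 to 41 reads of the gene. At that time the 2 clutches at stage 12 had 2.67 and 3.92 CPM and the 4 at stage 12.5 had 1.45 to 3.73 CPM, which overlap. The log2 fold change from 0 h was -0.75 ± 0.14 (SE, n = 6 clutches, adjusted p = 0.00025) at 1.5 h and -1.82 ± 0.15 (adjusted p = 1.1e-09) at 3 h. By 4.5 h it reached -2.71 ± 0.17 (adjusted p = 3.5e-12), a level 0.153 times that at 0 h. The decline was seen in 6 of 6 clutches at each time. Of all genes tested, 2.61% had a lower fold change at 4.5 h.

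The fall of rxrg.L continued in each interval. From 1.5 to 3 h the log2 change was -1.07 ± 0.16 (adjusted p = 1.6e-05), where 50.1% of genes were called. From 3 to 4.5 h it was -0.89 ± 0.18 (adjusted p = 0.00048), where 46.9% of genes were called. The decline also appeared in all 6 clutches of each treated group, with a mean change by 4.5 h of -2.95 ± 0.49 (SD, n = 6) in RA, -2.87 ± 0.44 in DEAB and -2.93 ± 0.71 in ethanol on the log2 CPM scale. The genes whose course over the 96 libraries was most like that of rxrg.L were pou5f3.3.L (Pearson r = 0.981, across libraries and with clutch means removed), an Oct4-related factor supplied by the mother, and lsm14b.S (r = 0.980), an RNA-binding protein of translational repression complexes. znf577.S, a zinc finger gene, was the third (r = 0.980).

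rxrb.L and rxrb.S, the homeologs that encode RXR beta, both rose. The control level of rxrb.L was 97.1 to 142.5 CPM at 0 h (median 117.4 CPM) and 172.6 to 208.0 CPM at 4.5 h (median 195.8 CPM). rxrb.S ranged from 41.1 to 76.6 CPM at 0 h (median 61.3 CPM) and from 135.2 to 179.4 CPM at 4.5 h (median 154.8 CPM). For both genes every library at 4.5 h lay above every library at 0 h, while neighbouring times overlapped in the control. How many of all genes separate in this way was not counted, and 82.9% were called between these times.

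The gain of rxrb.L on the log2 scale was 0.36 ± 0.06 (SE, adjusted p = 9.0e-05) at 1.5 h, 0.63 ± 0.06 (adjusted p = 1.5e-08) at 3 h and 0.77 ± 0.06 (adjusted p = 2.7e-10) at 4.5 h, the last a 1.71-fold rise. rxrb.S gained 0.79 ± 0.08 (adjusted p = 3.2e-07), 1.24 ± 0.08 (adjusted p = 2.9e-11) and 1.46 ± 0.08 (adjusted p = 6.6e-13), a 2.74-fold rise at the end. Both rose in 6 of 6 clutches at every time and in every treatment. The rise slowed: from 3 to 4.5 h the gain was 0.21 ± 0.08 for rxrb.S (adjusted p = 0.033) and 0.15 ± 0.06 for rxrb.L (adjusted p = 0.060), which did not pass. A gain larger than that of rxrb.S at 4.5 h was fitted for 17.6% of genes, and one larger than that of rxrb.L for 28.8%.

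The genes nearest in course to rxrb.S were rbm12.L (r = 0.990) and rbm14.L (r = 0.988), which encode RNA-binding proteins, and nsep1 (r = 0.988), a Y-box protein gene. Those nearest to rxrb.L were pmpca.S (r = 0.965), a subunit of the mitochondrial processing peptidase, upk1a.L (r = 0.963), a uroplakin, and sub1.L (r = 0.962), a transcriptional coactivator. These correlations largely follow time, which accounted for 83.5% of the variance of rxrb.L and 89.4% of that of rxrb.S over the 96 libraries.

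Because rxrb.S gained more than rxrb.L, the balance within the pair shifted. In control embryos rxrb.L took 59.7% to 75.8% of the reads of the pair at 0 h (median 65.8%) and 52.3% to 57.1% at 4.5 h (median 56.1%). The mean share was 66.5% ± 5.27 (SD, n = 6) to begin with, and it fell to 59.7% ± 4.43 at 1.5 h and 56.6% ± 1.78 at 3 h, ending as 55.5% ± 1.71. The sets at 0 and 4.5 h did not overlap, and how many other pairs separate in this way was not counted. The share also depends on the lengths of the transcripts and on how reads of near-identical copies were assigned, so its change over time is what can be read. The log2 ratio of L to S changed by -0.43 ± 0.09 (SE, adjusted p = 0.0020) at 1.5 h, -0.61 ± 0.09 (adjusted p = 1.8e-05) at 3 h and -0.68 ± 0.09 (adjusted p = 3.2e-06) at 4.5 h, in a limma fit over 2669 homeolog pairs. Shifts of this kind were common: 73.7% of the pairs changed their ratio by 4.5 h, and 42.9% changed it by more than rxrb did.

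The shift of the rxrb pair appeared in 6 of 6 clutches of every treatment and time. By 4.5 h the mean change of the log2 ratio was -0.87 ± 0.34 (SD, n = 6) after RA, -0.83 ± 0.29 after DEAB and -0.79 ± 0.24 after ethanol, beside -0.68 ± 0.31 in the control. The clutches started apart and ended closer. Clutch C stood highest in all 4 groups at 0 h, with rxrb.L at 75.8% of the reads of the pair in the control, and clutch B stood lowest in the control at every time, from 59.7% down to 52.3%.

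**Figure D2:**
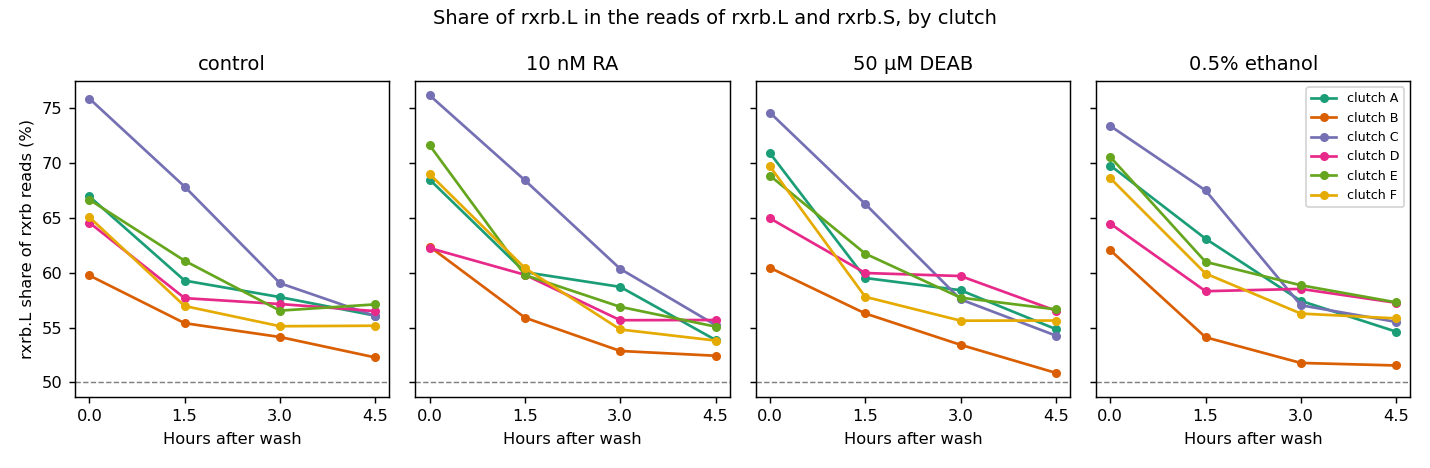
Share of rxrb.L in the reads of rxrb.L and rxrb.S (percent) against hours after the wash, by clutch and treatment. Each line is 1 clutch and the dashed line marks 50%; the axis does not start at 0. The share falls from 59.7% to 75.8% at 0 h to 52.3% to 57.1% at 4.5 h in the control, and clutch C starts highest in every treatment.

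rxra.S, which encodes RXR alpha, moved late and unevenly. Its control level was 3.28 to 5.81 CPM at 0 h (median 4.74 CPM), 3.23 to 5.21 CPM at 1.5 h (median 4.30 CPM), 3.01 to 7.08 CPM at 3 h (median 5.25 CPM) and 5.43 to 12.0 CPM at 4.5 h (median 7.49 CPM). All neighbouring times overlapped, and so did 0 and 4.5 h. The log2 change from 0 h was -0.14 ± 0.21 (SE, adjusted p = 0.61) at 1.5 h, 0.12 ± 0.21 (adjusted p = 0.61) at 3 h and 0.83 ± 0.21 (adjusted p = 0.00092) at 4.5 h. The step from 3 to 4.5 h alone was 0.71 ± 0.21 (adjusted p = 0.0084).

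Within single clutches the control gain of rxra.S by 4.5 h ran from 0.13 to 1.82 on the log2 CPM scale. It was 1.82 in clutch A, 1.41 in F and 0.88 in D, but 0.27 in B, 0.16 in E and 0.13 in C. B and C were the clutches at stage 12 at that time, with rxra.S at 5.43 and 6.25 CPM, while the 4 clutches at stage 12.5 ranged from 6.49 to 12.0 CPM. The part of stage in this spread was not tested. The 3 genes nearest in course to rxra.S were krt19.L, a keratin (r = 0.805), zbtb46.S, a transcription factor (r = 0.796), and clcn6.L, a chloride transporter (r = 0.785), all with a lower r than the matches of the other rxr genes.

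The late rise of rxra.S was also called in each treated group, in fits added after the control had been seen. From 0 to 4.5 h the log2 change was 1.04 after RA (adjusted p = 2.2e-05), 0.75 after DEAB (adjusted p = 0.0057) and 0.96 after ethanol (adjusted p = 0.00030). A gain was seen in 6 of 6 clutches after RA, and in 5 of 6 after DEAB and after ethanol. How many of all genes were called in these fits was not counted, and 82.9% were called between these times in the control. Over the 14 alternatives to the control value the adjusted p ran from 2.2e-05 to 0.012. These alternatives include the fits of treated libraries just given, and the lowest value is that of the RA libraries. The range is therefore not separate evidence for the control value. At the last time point rxra.S ranged from 7.38 to 11.8 CPM after RA and from 4.41 to 11.5 CPM after ethanol, a spread of clutches in treated embryos too.

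Across the 96 libraries, with clutch means removed, rxrb.L and rxrb.S followed each other (Pearson r = 0.955) and ran opposite to rxrg.L (r = -0.899 and -0.904). rxra.S followed the rxrb genes loosely (r = 0.445 and 0.455). The libraries share their time points, so these values describe the common course over time.

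**Figure D3:**
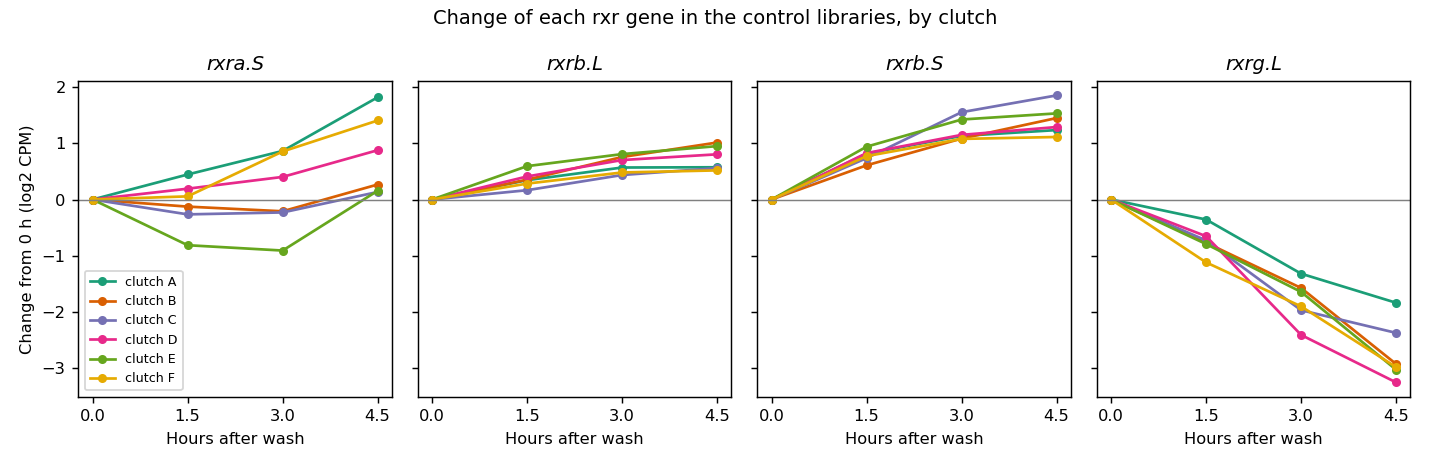
Change of each rxr gene from 0 h in the control libraries (log2 CPM) against hours after the wash, with 1 line per clutch. rxrb.L and rxrb.S rise and rxrg.L falls in all 6 clutches, while rxra.S gains from 0.13 to 1.82 by 4.5 h and lies below its start at 3 h in 3 clutches.

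The clutches also differed in level. rxrb.L (adjusted p = 0.0058), rxrb.S (adjusted p = 0.00024) and rxrg.L (adjusted p = 0.0022) differed between clutches in the control, and rxra.S was not called (adjusted p = 0.43); 82.5% of all genes differed in this way. The mean control level of rxrb.S ran from 95.2 CPM in clutch C to 134.0 CPM in clutch F, and that of rxrg.L from 6.42 CPM in F to 10.9 CPM in B. Clutch took 5.88% to 8.67% of the variance of the rxr genes over the 96 libraries, against 26.6% for the median gene. Treatment took 0.09% to 0.19% for rxrb.L, rxrb.S and rxrg.L and 2.68% for rxra.S, where the median gene had 0.61%. The share left to neither time, clutch nor treatment was 41.8% for rxra.S and 14.7% for the median gene. These shares were not tested, so they do not set rxra.S apart as responsive to treatment.

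The treated embryos were then set against the control, to ask how a transient rise or shortage of RA was reflected in these genes. In none of the comparisons of RA with control was an rxr gene called, in 16 tests over 4 genes and 4 times. The share of all genes called was 0.537%, 0.655%, 0.16% and 0% at 0, 1.5, 3 and 4.5 h; at 4.5 h 1458 of 19750 genes had p under 0.05 before adjustment. Before adjustment 3 of the 16 tests had p under 0.05 in edgeR, all at 0 h, where 3787 of all 19376 genes tested were also under 0.05. DEAB against control gave 0 of 16 calls, again with 3 tests under 0.05 before adjustment, all at 0 h, where 4330 of the 19376 genes were under 0.05. Of all genes, 2.37%, 0%, 0.0361% and 0.263% were called, with 1514 under 0.05 before adjustment at 1.5 h. RA against DEAB gave 0 of 16 with 1 test under 0.05, while 0.464%, 1.04%, 0.969% and 0.815% of all genes were called. The 1 test was rxra.S at 4.5 h, where 1538 of 19750 genes were under 0.05 before adjustment. DESeq2, run in place of edgeR, called rxrb.S at 0 h for RA and for DEAB against control, and no rxr gene in RA against DEAB or in ethanol against control. At 0 h it gave no adjusted p for rxra.S in RA, DEAB or ethanol against control, nor for rxrg.L in ethanol against control. Tests without an adjusted p were counted as not called.

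At 0 h, directly after the treatment, the tests nearest to a call were those of rxrb.S. Its level was 36.7 to 62.6 CPM after RA (median 55.8 CPM) and 39.2 to 62.5 CPM after DEAB (median 52.4 CPM), next to 41.1 to 76.6 CPM in the control, so the groups overlapped. The log2 change was -0.23 ± 0.06 (SE, adjusted p = 0.091) after RA, with a lower value in 6 of 6 clutches, and -0.23 ± 0.06 (adjusted p = 0.059) after DEAB, with a lower value in 5 of 6. These comparisons share their control libraries. These 2 results sat at the edge of the threshold: each was called in 4 of 11 other analyses, with an adjusted p from 0.026 to 1 for RA and from 0.0074 to 1 for DEAB. The 4 were DESeq2 (adjusted p = 0.047 for RA and 0.032 for DEAB), no filter on low counts, a single fit over all times, and the libraries without clutch C (adjusted p = 0.043 and 0.0074). The single fit takes the 4 times of a clutch as independent, so its adjusted p can overstate the precision. Between RA and DEAB themselves the difference was 0.00 ± 0.06, with a 95% interval from -0.13 to 0.14.

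rxrb.L ranged at 0 h from 92.5 to 129.3 CPM after RA (median 112.2 CPM) and from 86.6 to 127.2 CPM after DEAB (median 112.1 CPM), within much of the control range. Its log2 changes had the sign of those of rxrb.S and were smaller, -0.10 ± 0.04 after RA (adjusted p = 0.16) and -0.11 ± 0.04 after DEAB (adjusted p = 0.11). rxrg.L stood at 17.3 to 26.3 CPM after RA (median 19.02 CPM) and 14.95 to 22.9 CPM after DEAB (median 19.1 CPM), overlapping the control. Its log2 changes were 0.22 ± 0.07 after RA (adjusted p = 0.11) and 0.15 ± 0.07 after DEAB (adjusted p = 0.22), with 5 of 6 clutches higher in each. None of these passed. For rxrb.S, rxrb.L and rxrg.L the sign at 0 h, after RA and after DEAB, was opposite to that of the gene's change over time in the control. rxra.S had 0.05 ± 0.12 after RA, the sign of its control change of 0.83 by 4.5 h, and -0.08 ± 0.12 after DEAB, the opposite sign. The other genes were correlated over the libraries, so they are not separate observations. How many of all genes show opposite signs was not counted.

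Ethanol, set against the same controls, gave 0 of 16 calls, with 1 test under 0.05 before adjustment, while 2.89%, 0.065%, 0% and 0.00531% of all genes were called at the 4 times. The 1 test was rxrb.S at 0 h, where 4146 of 18563 genes were under 0.05 before adjustment. At 3 h, where none was called, 901 genes had p under 0.05 before adjustment. At 0 h the ethanol values of rxrb.S, rxrb.L and rxrg.L had the signs of their RA and DEAB values. They were -0.15 ± 0.06 for rxrb.S (adjusted p = 0.20), -0.04 ± 0.04 for rxrb.L (adjusted p = 0.59) and 0.07 ± 0.08 for rxrg.L (adjusted p = 0.64). Since all 3 comparisons use the same 6 control libraries, they are not separate evidence.

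**Figure D4:**
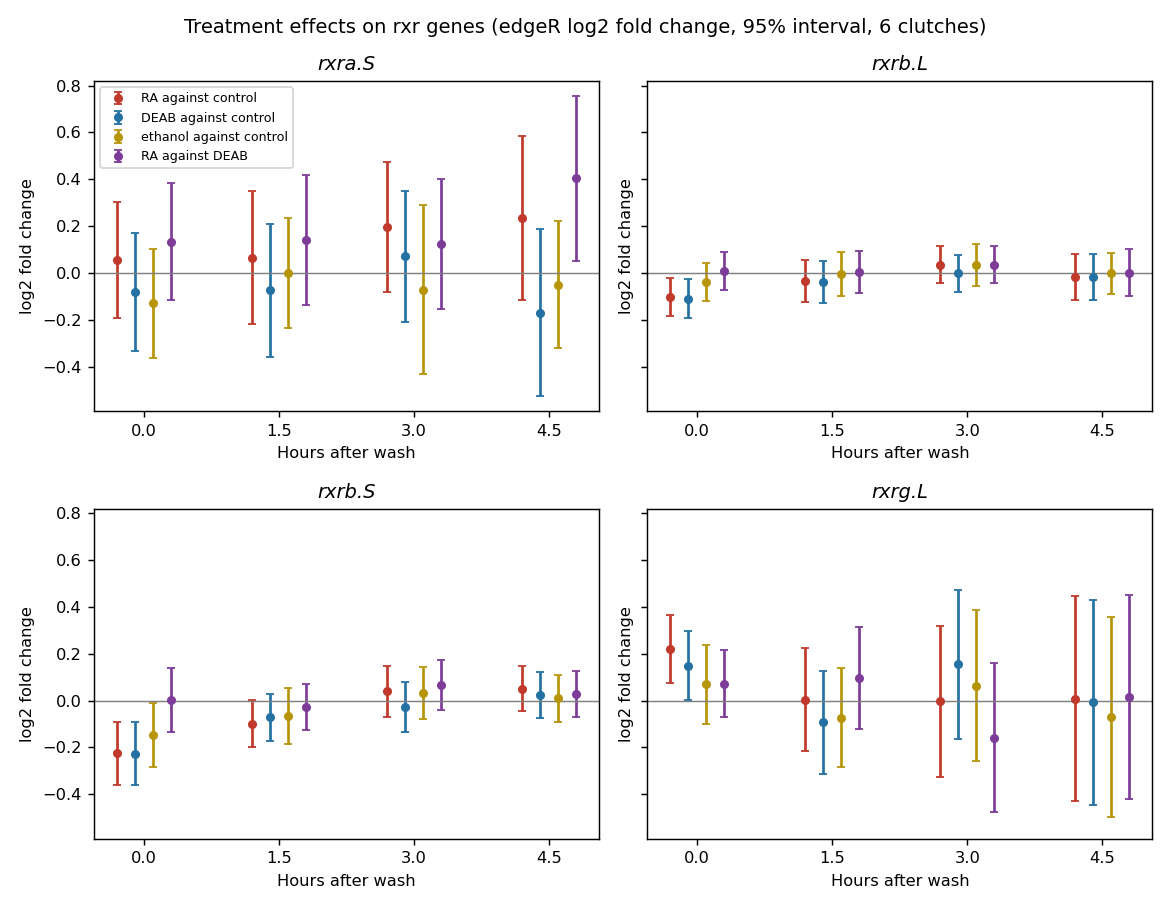
edgeR log2 fold change of each rxr gene for RA, DEAB and ethanol against control and for RA against DEAB, by hours after the wash; bars are 95% intervals over 6 clutches. No value passed the adjusted threshold; the intervals of rxrb.L and rxrb.S are narrow and those of rxra.S and rxrg.L wider, and rxra.S in RA against DEAB reaches 0.40 at 4.5 h.

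The intervals show the range of change that each fit left possible. Over the 12 tests against a control, the 95% intervals of rxrb.L stayed within a 1.14-fold change in either direction and those of rxrb.S within 1.29-fold. After 0 h the bounds were 1.09-fold for rxrb.L and 1.15-fold for rxrb.S. For rxrg.L they reached 1.41-fold and for rxra.S 1.50-fold, so changes within these bounds were not excluded. At 0 h the SE of rxrg.L after RA was 0.07, near the 0.06 of rxrb.S. The part of depth and of clutch spread in these widths was not tested.

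rxra.S gave the largest difference between RA and DEAB. At 4.5 h it ranged from 7.38 to 11.8 CPM after RA (median 9.61 CPM) and from 4.65 to 12.1 CPM after DEAB (median 6.72 CPM), with 5 of 6 clutches higher after RA. The groups overlapped, since the highest DEAB library exceeded every RA library. The log2 difference was 0.40 ± 0.17 (SE) with a 95% interval of 0.05 to 0.76, and it did not pass (adjusted p = 0.51). Averaged over the 4 times, rxra.S was 0.21 ± 0.07 higher after RA than after DEAB (adjusted p = 0.083), in 5 of 6 clutches. The averaged fit takes the 4 times of a clutch as independent, although they come from 1 female. Its SE and adjusted p can therefore overstate the precision. The clutch means of this difference had an SD of 0.26 (n = 6). Without clutch A, in which rxra.S stood at 12.1 CPM after DEAB and 7.38 CPM after RA at 4.5 h, the difference at 4.5 h was 0.65 (adjusted p = 0.024, where the 11 other analyses ran from 0.024 to 1) and the averaged one 0.29 (adjusted p = 0.0064, where 7 ran from 0.0064 to 1), both called. Neither was called with clutch A included. An exact two-sided sign-flip test over the 6 clutch means, one of 16 such tests, gave p = 0.125, where the smallest possible p was 0.0312.

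With all times averaged, no rxr gene was called for RA against control (1 of 4 under 0.05 before adjustment), for DEAB against control (1 of 4) or for RA against DEAB (1 of 4), while 8.3%, 10% and 3.86% of all genes were. Of all 22092 genes tested, 5123, 5493 and 2847 were under 0.05 before adjustment in these comparisons. Without clutch A, rxra.S was called for RA against control (0.25, adjusted p = 0.014), and without clutch C, rxrb.S for DEAB against control (-0.10, adjusted p = 0.023). All averaged fits take the 4 times of a clutch as independent. Their SE, adjusted p and shares of genes called can therefore overstate the precision. Over the 8 other analyses of each the adjusted p ran up to 1. The averaged values against control were 0.14 ± 0.07 after RA and -0.07 ± 0.07 after DEAB for rxra.S, -0.03 ± 0.02 and -0.04 ± 0.02 for rxrb.L, -0.05 ± 0.03 and -0.07 ± 0.03 for rxrb.S, and 0.09 ± 0.06 and 0.06 ± 0.06 for rxrg.L. A test of whether the treatment effect changed with time called none of the 4, with none under 0.05 before adjustment, and 0.00453% of all genes.

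In the same libraries other genes of the pathway were called, mostly in RA against DEAB and at the early times against control. Among 17 genes of RA metabolism and transport, 5 rose and none fell in RA against DEAB at 0 h, where 0.464% of all genes were called. They included cyp26a1.S, an RA-degrading enzyme, at 3.38 ± 0.16 log2 (SE, adjusted p = 5.5e-10) and dhrs3.L, which reduces retinaldehyde, at 3.06 ± 0.15 (adjusted p = 5.5e-10). The median over the 15 tested was 0.08. All 5 hox targets tested at 0 h rose, among them hoxd1.S by 2.38 ± 0.25 (adjusted p = 3.2e-05), with a median of 2.66. Only 5 of the 10 hox genes passed the filter at 0 h. A gene can pass through 1 treatment group in which it is high. The hox counts at 0 and 1.5 h and the median at 0 h are therefore not separate evidence. At 4.5 h 5 of 16 metabolic genes and 7 of 10 hox genes tested were higher after RA than after DEAB. The medians were -0.03 and 0.66, and 0.815% of all genes were called. More hox genes passed the filter at 4.5 h than at 0 h. In RA against DEAB 1 metabolic gene was lower at 3 h and 2 were lower averaged over time. Of all genes, 0.969% and 3.86% were called in these 2 tests. Against the control, RA raised 5 of 15 metabolic and 3 of 5 hox genes tested at 0 h. At 1.5 h it raised 5 of 17 metabolic and 5 of 7 hox genes tested. Of all genes, 0.537% and 0.655% were called at these times. edgeR called none of either list at 3 or 4.5 h, where 0.16% and 0% of all genes were called. Before adjustment 5 metabolic and 6 hox genes were under 0.05 at 3 h, and 5 and 1 at 4.5 h. The counts over all genes tested were 1322 of 19400 at 3 h and 1458 of 19750 at 4.5 h. DEAB against control lowered 3 metabolic and 3 hox genes at 0 h, none at 1.5 or 3 h, and 1 metabolic and 3 hox genes at 4.5 h. Of all genes, 2.37%, 0%, 0.0361% and 0.263% were called in that contrast at 0, 1.5, 3 and 4.5 h. At 1.5 h 7 metabolic and 7 hox genes, and at 3 h 7 and 8, were under 0.05 before adjustment in that contrast. Over all genes tested the counts there were 1514 of 19543 at 1.5 h and 1915 of 19400 at 3 h. The median over all genes lay between -0.01 and 0.01 in these contrasts at each time.

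Most of the nuclear receptors that pair with RXR or bind similar DNA elements were not called between RA and DEAB. Of 16 such genes (15 tested at 3 h), 2 rose in RA against DEAB at each of the 4 times and none fell, where 0.464% to 1.04% of all genes were called. Both were homeologs of nr6a1, the germ cell nuclear factor, an orphan receptor. nr6a1.L was higher by 1.23 ± 0.18 (adjusted p = 0.0016) at 0 h and by 0.54 ± 0.09 (adjusted p = 0.0026) at 4.5 h. nr6a1.S was higher by 0.37 ± 0.05 (adjusted p = 0.00069) at 0 h, by 1.09 ± 0.11 (adjusted p = 9.6e-06) at 1.5 h and by 0.63 ± 0.09 (adjusted p = 0.0010) at 4.5 h. Against the control, 2 of the 16 genes rose after RA at 0 h and 2 at 1.5 h, where 0.537% and 0.655% of all genes were called. DEAB lowered 1 of them at 4.5 h, where 0.263% of all genes were called. Of 20 genes for RAR coregulators, which are the corepressors and coactivators that the receptor pair recruits, none was called in RA against DEAB by edgeR at any time, with 3 under 0.05 before adjustment at 1.5 h and 0 at the other times. In RA against DEAB at 1.5 h, 1446 of all 19543 genes tested were under 0.05 before adjustment. Against the control at 0 h, DEAB had 1 of the 20 coregulator genes called, higher, and 11 under 0.05 before adjustment (median 0.11). RA had 0 called and 8 under 0.05 (median 0.09). Of all 19376 genes tested, 2.37% were called for DEAB and 0.537% for RA. Before adjustment 4330 and 3787 of them were under 0.05.

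Over time in the control, 7 of the 16 partner genes rose and 6 fell by 4.5 h, and 9 of the 20 coregulator genes rose while 9 fell, where 82.9% of all genes were called in one direction or the other. The medians were 0.24 and -0.02 on the log2 scale, beside -0.08 for all genes.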

How the data were processed

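RNA-seq counts of 31430 X. laevis genes (genome version 9.1) in 96 libraries were the main data. The authors mapped the reads with STAR and deposited them as unnormalized counts per gene. They also deposited normalized log2 expression values of 16322 genes for the control, RA and DEAB libraries, which supplied the symbols (1503 genes had none) and an alternative test. Ethanol was not part of the authors' own analysis. Counts were tested in edgeR 4.0.16 (R 4.3.3; genes kept by filterByExpr per group, TMM scaling, quasi-likelihood fit) within each time point, with the clutch as a block. Homeolog ratios were tested in limma 3.58.1 on log2 CPM with a prior count of 2. DESeq2 1.42.0 served as an alternative. The clutch pairs libraries because siblings of one female were divided over all groups. Libraries of the same clutch deviated together (r = 0.533 to 0.880 over 144 pairs). The scripts were tested on simulated data. The RefSeq table at hand lists all 4 symbols but belongs to another assembly, so no coordinates are given. Genes named beside the rxr genes were the 3 most alike to each (mean CPM of at least 10, over 96 libraries) and those of fixed lists called in RA against DEAB, at most 4 a list. A gene withheld from this text is not reported here. The members and lists were chosen with earlier results of these data known.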

Additional observations from a re-analysis of the deposited data

Results flagged for a closer look

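In 80 groups of 6 libraries (4 genes and the rxrb ratio, in 16 groups each), 4 held a library whose gap to its neighbour was large for the range of its group; chance alone gives about 1 in 20. For rxrg.L at 0 h, clutch C stood at 26.3 CPM after RA, where the other 5 libraries ranged from 17.3 to 20.2 CPM, and at 23.3 CPM after ethanol, where the others ranged from 15.6 to 17.4 CPM. Clutch C also had the highest share of rxrb.L in the reads of the rxrb pair 1.5 h after RA, 68.4% against 55.9% to 60.4%. Clutch B had the lowest 3 h after ethanol, 51.8% against 56.3% to 58.8%. No rxr gene moved one way in all 6 clutches under one treatment and the opposite way in all 6 under another.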

How the results depend on the processing

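The calls over time held in every alternative run: at 4.5 h against 0 h the log2 change ranged from 0.44 to 1.09 for rxra.S, 0.38 to 0.87 for rxrb.L, 0.87 to 1.74 for rxrb.S and -2.93 to -1.64 for rxrg.L, the smallest sizes being those of the deposited log2 values, and stage in place of hours gave 1.09 for rxra.S. The L to S log2 ratio of rxrb ranged from -0.72 to -0.50. The ranges of the gene changes include fits with the RA, DEAB or ethanol libraries in place of the control, which were chosen after seeing the data. Clutch differences called 4 genes rather than 3 with all 96 libraries.

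Treatment calls were at the threshold. For RA and for DEAB against control, DESeq2, no filter on low counts and the single fit over time points each called 1 of 16 tests, rxrb.S at 0 h, instead of 0. The single fit takes the times of a clutch as independent and can overstate the precision. DESeq2 gave no adjusted p for rxra.S at 0 h in these comparisons, and such tests counted as not called. Leaving out 1 clutch gave 0 to 1 calls for RA against control, DEAB against control and RA against DEAB, at single times and averaged over time. Without the replicate block, that is without pairing by clutch, 0 tests were called in each treatment comparison and 3, 3 and 4 in the control over time. These counts equal those with the block. The edgeR adjusted p of rxrb.S for DEAB against control at 0 h still went from 0.059 to 0.9999. Equal counts therefore do not show that the pairing had no effect.

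Some signs of values near 0, none called, were reversed. rxrb.S in RA against DEAB at 0 h became -0.0017 in DESeq2 and -0.00047 in limma on deposited values, and ran from -0.035 to 0.039 when 1 clutch was left out; rxrb.L ran from -0.0086 to 0.021. rxra.S in RA against control at 0 h ran from -0.075 to 0.12 in this way, and in the control from -0.23 to 0.026 at 1.5 h (0.039 in the ethanol libraries) and from -0.027 to 0.33 at 3 h. Averaged over time, RA against DEAB ran from -0.046 to 0.066 for rxrg.L and from -0.0040 to 0.043 for rxrb.S. Reads were fewest for rxra.S and rxrg.L, with as few as 28 and 7 in a library.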
